A study of Mus musculus with 2 samples.

Results

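Naive-like Lef1 CD4 T cells were taken from the cell barcodes of mouse aorta as T cells that carried Lef1 and Cd4 transcripts and no transcript of 6 genes that mark CD8, cytotoxic, immature, B cell or macrophage identity. They were chosen by their UMI counts (unique molecular identifiers, which count captured transcripts). A barcode needed 500 genes or more, a mitochondrial share of 10% or less, at least 2 of the 4 genes Cd3e, Cd3d, Cd3g and Trac, at least 1 UMI each of Lef1 and Cd4, and 0 UMIs of Cd8a, Cd8b1, Nkg7, Rag1, Cd79a and C1qa. The rule found 177 cells among 19897 filtered cells, 39 of them from Cept1 mice and 138 from control mice. The levels of the genes it used are given as a description.

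The study profiled whole aortas of male C57BL6 mice by droplet-based 10x Genomics 3' single-cell RNA sequencing, with 1 library per group. The Cept1 library came from Cept1fl/fl mice with the tamoxifen-inducible VE-cadherin-Cre-ERT2 (Cept1fl/flCre+), labelled as endothelial overexpression of Cept1, the enzyme that catalyses the last step of phosphatidylcholine and phosphatidylethanolamine synthesis. The control library came from Cept1fl/fl mice without Cre. The labels' treatment protocol, worded alike for both groups, gives 5 daily injections of 1 mg tamoxifen from at least 8 weeks of age and 5 days of recovery, while the age label reads 6 to 8 weeks, with 3 aortas per condition. The aortas were taken from the arch to the bifurcation and digested with enzymes, and red blood cells were lysed. VE-cadherin drives Cre in endothelial cells, so T cells of the Cept1 mice are not the labelled target. Neither a pooling of the 3 aortas nor the gate of the cell sort is stated in the labels.

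Naive CD4 T cells leave the thymus and circulate between blood and lymph nodes until they meet antigen. Lef1 and Tcf7 (TCF-1) are the transcription factors of this resting state, and the chemokine receptor Ccr7 guides the cells into lymph nodes. The vessel wall holds few such cells, mainly in the adventitia and its lymphoid tissue.

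The libraries held 95735360 UMIs in 17728 barcodes (Cept1) and 88220524 UMIs in 14349 barcodes (control), of which 11168 and 8729 barcodes passed the filter. The Lef1 CD4 T cells had a median of 6620 UMIs and 2268 genes in the Cept1 library, against 7907.5 UMIs and 2538.5 genes for the control library, and 298122 and 1193192 UMIs in sum. Their median mitochondrial share was 5.16% and 3.85%. The libraries shared 74 barcode sequences, of which 31 passed the filter in both and 0 belonged to a Lef1 CD4 T cell. Each group has a single library, so differences between the groups carry no test, and cells are not replicates. Each interval below is an exact 95% Clopper-Pearson interval that covers counting error only.

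Cept1 (chromosome 3, 106502260 to 106547802, minus strand, GRCm38), the gene named in the labels, was not detectably higher in these cells. Levels are given in CPM (UMIs summed over the cells and scaled to the same total per library), and ratios are log2 of CPM, Cept1 library over control library. Cept1 had 18 UMIs (60.4 CPM) in Cept1 cells, as Lef1 CD4 T cells of the Cept1 library are called here, and 97 (81.3 CPM) in control cells, a log2 ratio of -0.43 (-1.24 to 0.31), whereas in endothelial cells by gate it had 1427 and 601 UMIs, a ratio of 0.61 (0.47 to 0.75). Cept1 was also higher in all other T cells, at 0.56 (0.23 to 0.88), in macrophages, at 0.23 (0.12 to 0.34), and in fibroblasts, at 0.19 (0.06 to 0.33). It was not detectably higher in B cells by gate, at 0.03 (-0.29 to 0.34) from 116 and 323 UMIs. In Lef1 CD8 T cells it was at 0.87 (-1.22 to 2.59). Here and wherever ratios between the libraries are given for other T cells and Lef1 CD8 T cells, barcodes with 0.5% or more of their UMIs from other cell types' markers were left out, which kept 205 and 508 other T cells and 10 and 47 Lef1 CD8 T cells. Gt(ROSA)26Sor, read from the Rosa26 locus, had 0 UMIs in Cept1 cells and 49 in control cells, at least 4.08-fold lower by a floor of 3 counts per library. It was also lower in all other T cells, with 4 and 159 UMIs (-3.81, -5.71 to -2.43), and in endothelial cells, with 21 and 179 UMIs (-3.73, -4.46 to -3.08). The labels do not name the locus of the transgene.

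Cd4 was the narrow step of the gate. The CD3 criterion was met by 318 T cells of the Cept1 library and 787 of the control library. Of these, 241 and 677 carried Lef1, and 77 and 240 of these carried Cd4. The zero-UMI criteria then left 39 and 138 cells. Lef1 (chromosome 3, 131110471 to 131224356, plus strand) was read deeply in the cells, with 1 to 49 UMIs and a median of 12 in Cept1 cells and 1 to 78 with a median of 12.5 in control cells. Cd4 (chromosome 6, 124864692 to 124888221, minus strand) reached only 4 UMIs per cell in Cept1 cells and 10 in control cells. It stood at exactly 1 UMI, the threshold itself, in 23 of 39 and 54 of 138 cells, whereas Lef1 did so in 1 and 5 cells. Just outside the gate lay 49 and 133 Lef1 T cells with 0 UMIs of Cd4, Cd8a and Cd8b1, and 4 and 7 barcodes that met the gene criteria with more than 10% mitochondrial UMIs. All 4 CD3 genes were present in 21 and 109 cells.

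Some of these barcodes also held transcripts of other cell types. UMIs of fibroblast, smooth muscle, endothelial, macrophage, neutrophil and B cell marker genes made up a median of 0.166% of a cell's UMIs in Cept1 cells and 0.125% in control cells, with maxima of 17.4% and 7.80%. In the Cept1 library 6 cells, and in the control library 15 cells, lay above 0.5%, and a gap separated them from the rest, whose highest values were 0.351% and 0.411%. Fibroblast genes led in 4 of the 6 and 10 of the 15. All 10 fibroblast markers were present, with 4336 UMIs in Cept1 cells and 4274 in control cells, or 0 to 2852 and 0 to 777 per cell with a median of 3 in both. Of 12 B cell markers 7 and 5 were at 0, of 12 cytotoxic markers 8 and 6, and of 6 neutrophil markers 4 and 2. A single Cept1 barcode carried 960 of the 1235 Col1a2 UMIs and 611 of the 759 Col1a1 UMIs, genes of type I collagen. Scrublet, a caller of doublets (droplets with more than 1 cell), marked 3 of the 39 and 6 of the 138 cells, all of them above 0.5%. Results are therefore given for all cells of the rule and, where stated, for the 33 and 123 cells below 0.5%, a limit chosen after the values were seen.

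**Figure D1:**
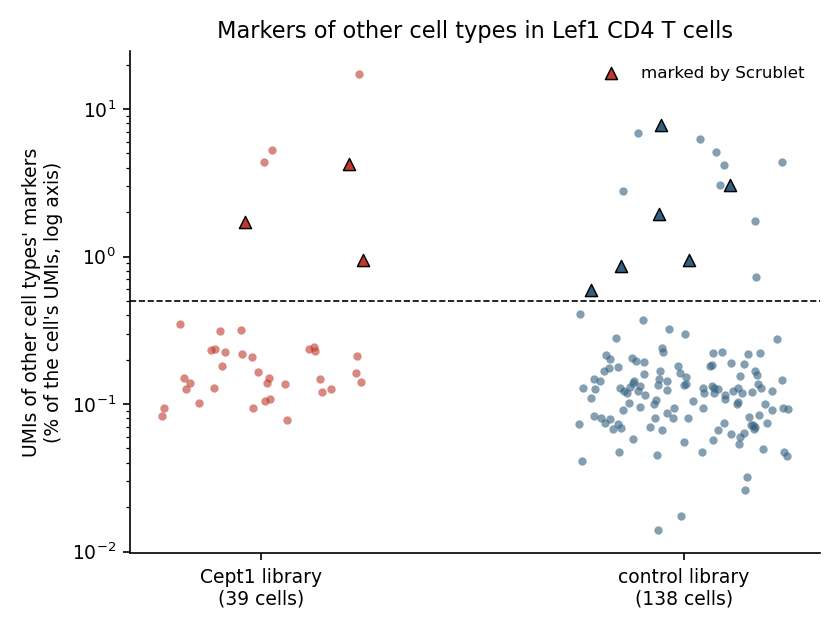
UMIs of other cell types' marker genes as a percentage of each Lef1 CD4 T cell's UMIs, on a log axis, for 39 cells of the Cept1 library (left) and 138 of the control library (right). Points are cells, triangles are cells marked by Scrublet, and the dashed line is the 0.5% limit; 6 and 15 cells lie above it, and no cell lies between 0.411% and 0.595%.

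Lef1 CD4 T cells made up a smaller share of the Cept1 library. They were 0.349% (0.248 to 0.477) of filtered cells there and 1.58% (1.33 to 1.86) in the control library, a 4.53-fold difference, and below the 0.5% limit the shares were 0.295% and 1.41%. Lymphocytes as a whole shared this direction. T cells by the CD3 criterion held 2.85% and 9.02% of filtered cells, B cells by a marker gate 2.29% and 8.10%, and Lef1 CD8 T cells (the same gate with Cd8a or Cd8b1 and without Cd4) 0.125% and 0.642%. Fibroblasts by gate held 28.3% and 27.4%, macrophages 18.0% and 10.9%, and endothelial cells 12.8% and 8.80%. The cause of the lower lymphocyte shares was not tested.

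Within the T cells the difference was smaller. Lef1 CD4 T cells were 12.3% (8.87 to 16.4) of T cells in the Cept1 library and 17.5% (14.9 to 20.4) in the control library, intervals that overlap. When the Lef1 criterion was dropped from the CD4 gate, 39 of 48 CD4 T cells in the Cept1 library carried Lef1 (81.2%, 67.4 to 91.1), against 138 of 143 in the control library (96.5%, 92.0 to 98.9). The CD4 T cells without Lef1 were 9 and 5 cells, 0.0806% and 0.0573% of filtered cells. After thinning each cell to 1500 UMIs the gate kept only 3 and 32 Lef1 CD4 T cells, of 6 and 39 CD4 T cells.

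**Figure D2:**
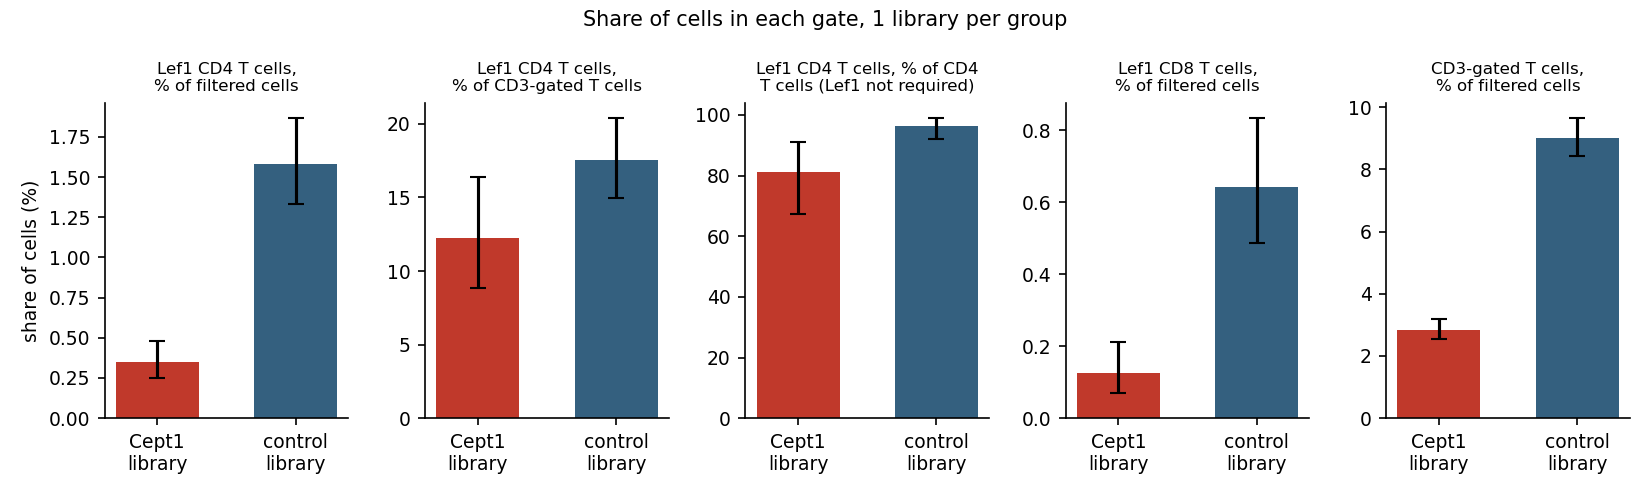
Share of cells in each gate in the Cept1 library (left bars) and the control library (right bars), 1 library each, in percent of the population named above each panel; bars start at 0 and error bars are exact 95% binomial intervals, which cover counting error only. Lef1 CD4 T cells are 0.349% and 1.58% of filtered cells but 12.3% and 17.5% of T cells.

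The cells carried the naive program that their label names. Ccr7 (chromosome 11, 99144196 to 99155077, minus strand), which the rule did not use, had a UMI in 35 of 39 cells of the Cept1 library (89.7%, 75.8 to 97.1) and 107 of 138 of the control library (77.5%, 69.7 to 84.2), while 0.0633% and 2.01% of fibroblasts had one at median depths of 5752.5 and 7534 UMIs. Tcf7, the partner of Lef1, was found in 89.7% and 93.5%, and Satb1, a chromatin organizer of T cells, in 97.4% and 97.8%, against at most 7.52% of fibroblasts. Il7r, the receptor for the survival cytokine IL-7, was found in 84.6% and 87.0% of the cells, against 0.253% and 1.09% of fibroblasts.

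Apart from Themis, the regulatory, cytokine, proliferation and thymocyte markers counted here were present in a minority of cells. Activation genes, Cd69 among them, are given further below. Foxp3, the factor of regulatory T cells, had a UMI in 1 cell of the Cept1 library (2.56%, 0.0649 to 13.5) and 7 cells of the control library (5.07%, 2.06 to 10.2), against 0.0317% and 0.0418% of fibroblasts. At least 2 of the 5 regulatory genes Foxp3, Il2ra, Ctla4, Ikzf2 and Tnfrsf18 were present in 8 of 39 (20.5%) and 29 of 138 cells (21.0%), and at least 3 in 3 and 15 cells. A cytokine transcript among Ifng, Il4, Il17a and Il21 was found in 1 of 39 and 0 of 138 cells, where 0 of 138 allows a share of cells with a UMI of up to 2.17% by the floor of 3 counts. The proliferation genes Mki67 or Top2a were found in 0 of 39 cells, which allows a share of cells with a UMI of up to 7.69% by the same floor, and in 9 of 138 cells (6.52%). Neither value limits the share of cells that express the genes. Of the thymocyte genes other than the excluded Rag1, any of Rag2, Dntt, Ptcra or Cd1d1 was found in 3 and 20 cells, or 7.69% and 14.5%. Themis, from the same marker list, was found in 36 of 39 (92.3%) and 128 of 138 cells (92.8%). T cell receptor variable segments were seen too seldom to describe clones, with a Trbv transcript in 6 and 25 cells spread over 5 and 16 segments.

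**Figure D3:**
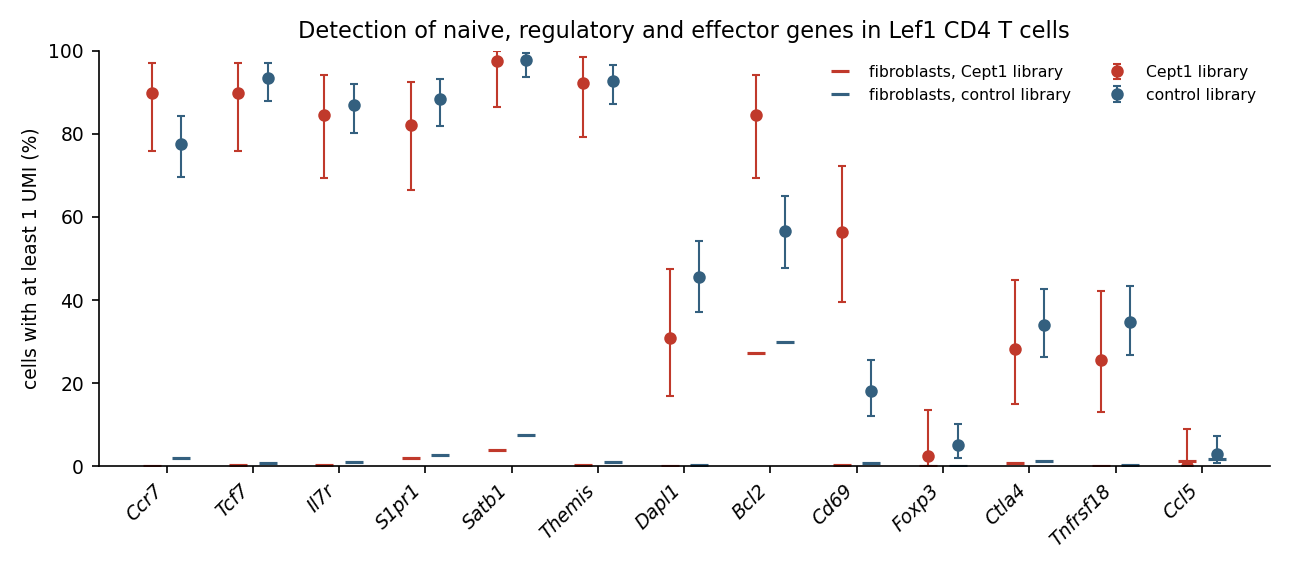
Percentage of Lef1 CD4 T cells with at least 1 UMI of each gene in the Cept1 library (red, left of each pair, 39 cells) and the control library (blue, 138 cells), with exact 95% binomial intervals; horizontal dashes are the same share in fibroblasts of that library. Ccr7, Tcf7 and Satb1 stand far above the fibroblast level in both libraries, while Cd69 is in 56.4% and 18.1% and Foxp3 in 2.56% and 5.07% of cells.

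Activation and immediate early genes were higher in the Lef1 CD4 T cells of the Cept1 library. Among 4477 genes with at least 50 UMIs over both libraries, 8.15% differed by at least 2-fold, of which 189 (4.22%) were higher and 176 (3.93%) lower in the Cept1 library, with a median of -0.01 over all genes. Below the 0.5% limit 7.21% of 3591 genes did so, 116 (3.23%) higher and 143 (3.98%) lower. Scaling by TMM factors in place of total UMIs moved the median of all genes by -0.11 and changed the counts to 142 higher and 237 lower, so that 37.5% in place of 51.8% of the calls were higher.

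Of the 37 genes in the activation and immediate early list, 34 had at least 20 UMIs, and 29 of these were higher in the Cept1 library, 11 by at least 2-fold, against 6.86% of all 7565 genes with at least 20 UMIs. The median of the list was 0.72. Below the limit 27 of 30 measured genes were higher, 13 by at least 2-fold (background 5.53%), with a median of 0.91. In the same cells the 3 measured of 10 macrophage markers were past 2-fold with a median of 1.68, and the 2 measured of 5 platelet markers, Nrgn with 22 and 3 UMIs and Pf4 with 13 and 19 UMIs, had a median of 3.39, and their part in the activation ratios was not tested. At least 2-fold lower were 2 genes of the list (Cd83 and Fosl2) over all cells, where 8.09% of all genes were, and 0 below the limit, where 9.56% were. Of the 62 Cd83 UMIs in control cells, 51 came from 1 cell. Cd69, an early activation antigen that also holds T cells in tissue (chromosome 6, 129267325 to 129275436, minus strand), had 52 UMIs in Cept1 cells and 46 in control cells, or 174 and 38.6 CPM. Its log2 ratio was 2.18 (1.58 to 2.78), and 2.23 (1.59 to 2.87) below the limit. It was detected in 22 of 39 cells (56.4%) and 25 of 138 cells (18.1%), against 0.253% and 0.710% of fibroblasts. After thinning to 1500 UMIs the shares were 20.5% and 5.80%.

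Jun, a subunit of the AP-1 transcription factor (chromosome 4, 95049034 to 95052222, minus strand), had 147 UMIs (493 CPM) in Cept1 cells and 114 (95.5 CPM) in control cells, a log2 ratio of 2.37 (2.00 to 2.73), and 2.55 (2.07 to 3.03) from 85 and 68 UMIs below the limit, with 24 of the 85 in 1 cell. Other regulators were past 2-fold in the cells below the limit, among them Irf4, a factor induced by T cell receptor signals (2.93, from 13 and 8 UMIs), Gadd45b, a stress and NF-kB target (1.88), Zfp36, which destabilizes cytokine mRNA (1.46), Nfkbia, the inhibitor of NF-kB (1.38), Dusp2 and Dusp1, phosphatases of MAP kinases (1.27 and 1.18), and Nr4a1, a nuclear receptor induced by T cell receptor signals (1.07). Over all cells Nfkbia, Dusp2 and Nr4a1 were below 2-fold, at 0.88, 0.85 and 0.67.

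In the Cept1 library the AP-1 genes Fos and Fosb lay largely in the barcodes above the limit. In the control library 85 of the 110 Fos UMIs lay below it. Fos had 212 UMIs in Cept1 cells and 110 in control cells, a log2 ratio of 2.95 (2.61 to 3.29) with 88 of the 212 in 1 cell, but 33 and 85 UMIs and a ratio of 0.87 (0.24 to 1.46) below the limit. Fosb stood at 2.63 over all cells and had only 4 and 13 UMIs below the limit. Egr1 was at 2.43 and at 1.14 (0.19 to 2.04). Junb, the AP-1 gene with the most UMIs of the family in these cells, was at 0.13 and 0.18 in both sets, and Fosl2 was lower, at -1.01 (-1.63 to -0.44) and -0.78 (-1.45 to -0.16).

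**Figure D4:**
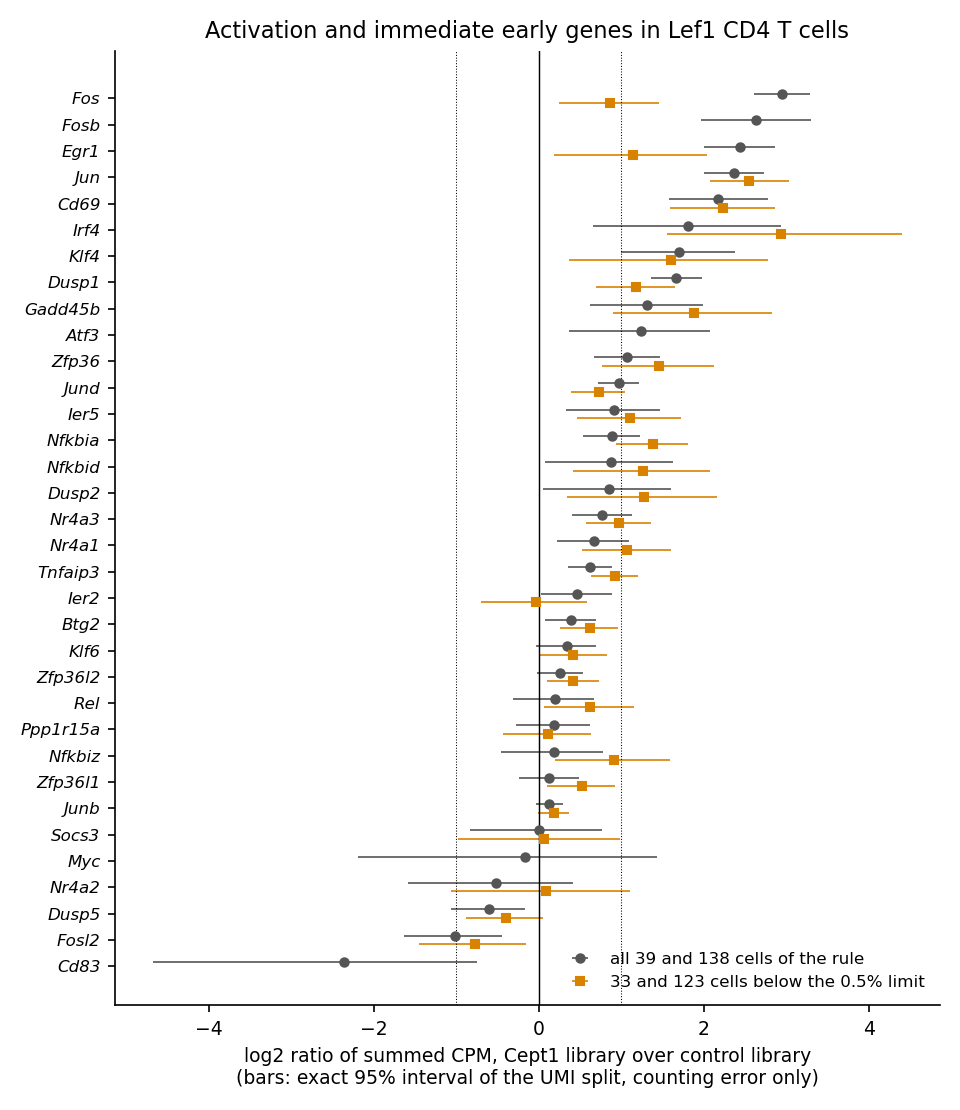
Log2 ratio of summed CPM, Cept1 library over control library, for measured activation and immediate early genes in all Lef1 CD4 T cells of the rule (grey circles) and in those below the 0.5% limit (orange squares, genes with at least 20 UMIs there); bars are exact 95% intervals of the UMI split, and dotted lines mark 2-fold. Jun and Cd69 keep their ratios below the limit, whereas Fos moves to 0.87.

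The difference was spread over cells. In cells below the limit the activation list made up a median of 0.628% of a cell's UMIs in the Cept1 library (0.288% to 4.01%) and 0.477% in the control library (0.149% to 1.36%). The median of the control library was exceeded by 26 of 33 Cept1 cells, and the median of the Cept1 library by 27 of 123 control cells, so the ranges overlap widely. The highest value, 4.01%, belonged to 1 Cept1 cell without a Ccr7 UMI. The naive and quiescence list had medians of 1.82% and 1.46%, with 23 of 33 Cept1 cells above the control median and 23 of 123 control cells above the Cept1 median, so it was higher in Cept1 cells as well.

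**Figure D5:**
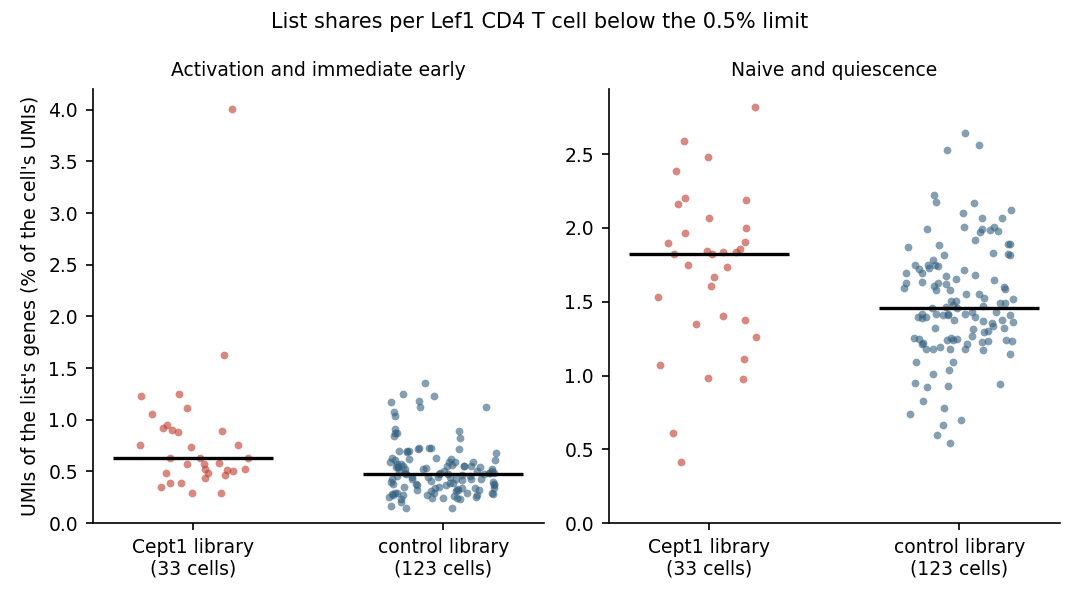
Percentage of each cell's UMIs that belongs to the activation and immediate early list (left panel) and the naive and quiescence list (right panel) in Lef1 CD4 T cells below the 0.5% limit, with 33 Cept1 cells left and 123 control cells right; points are cells and lines are medians. The activation medians are 0.628% and 0.477% and the naive medians 1.82% and 1.46%, with wide overlap of the cells.

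The same list was not higher in every cell type. In Lef1 CD8 T cells its median log2 ratio was 0.56 (17 of 24 measured genes higher), in all other T cells 0.66 (33 of 36) and in B cells 0.67 (34 of 37), whereas it was -0.26 in fibroblasts (7 of 37), -0.18 in endothelial cells (13 of 37) and -0.13 in macrophages (12 of 37). Barcodes above the limit were left out of both T cell groups but not of the B cells. In B cells all 10 macrophage markers were at least 2-fold higher in the Cept1 library, with a median of 1.80. In all other T cells 8 of 8 measured macrophage markers were higher, with a median of 1.03. In the Cept1 library the activation list's median share of a cell's UMIs was 3.55% in macrophages and 0.932% in B cells. The part of macrophage transcripts in these ratios was not tested. Cd69 was at 2.62 (1.59 to 3.65) in Lef1 CD8 T cells and 1.98 in all other T cells. With 1 library per group, library and genotype cannot be told apart.

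Beyond that list, the survival gene Bcl2 was higher in Cept1 cells. Bcl2, which protects resting lymphocytes from apoptosis (chromosome 1, 106538178 to 106714274, minus strand), had 258 UMIs (865 CPM) in Cept1 cells and 396 (332 CPM) in control cells. Its log2 ratio was 1.38 (1.15 to 1.61), and 1.68 (1.43 to 1.92) from 239 and 351 UMIs below the limit. A Bcl2 UMI was found in 84.6% and 56.5% of cells, or 56.4% and 29.7% after thinning, and in 27.3% and 30.0% of fibroblasts. The ratio was 1.07 (0.52 to 1.59) in Lef1 CD8 T cells, 0.83 in all other T cells and -0.08 in all filtered cells outside the gate.

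Ranked over the cells of the rule, the 12 highest genes were Lyz1, Ccl6, Lpl, Pltp, Col1a2, Fbln2, Rbp4, Col1a1, Naaa, Jun, Sparc and Ctla2a. Most of these are genes of fibroblasts or macrophages and came from few barcodes. Lyz1 had 70 of its 71 Cept1 UMIs in 1 cell and Ccl6 127 of 136. Col1a1 was at 3.09 (2.91 to 3.27) over all cells and at -0.17 (-1.58 to 1.01) below the limit. Ctla2a, a cysteine protease inhibitor whose counts may be split with its near-identical copy Ctla2b, stayed among the 12 highest below the limit, while Jun, at 402 CPM in Cept1 cells against 956 CPM in the remaining cells of that library, was no longer ranked by the rule on levels. Ctla2a had 71 and 22 UMIs there, a ratio of 3.92 (3.21 to 4.68), with 47 of the 71 in 1 cell.

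Below the limit the 12 highest were Ctla2a, Cd69, Lpxn, Cers4, Tsc22d1, Skil, Ell2, Tgif1, Relb, Setd7, Kdm6b and Bcl2. Skil and Tgif1 are repressors in the TGF-beta pathway, Relb is an NF-kB subunit and Kdm6b a histone H3 demethylase. Skil (chromosome 3, 31095058 to 31122577, plus strand) had 88 UMIs (416 CPM) in Cept1 cells and 114 (115 CPM) in control cells, a log2 ratio of 1.86 (1.44 to 2.27), and was found in 25 of 33 and 57 of 123 cells. Tgif1 was at 1.75 (1.14 to 2.36), Relb at 1.75 (1.00 to 2.49) and Kdm6b at 1.69 (1.20 to 2.18). In Lef1 CD8 T cells these 4 genes were at 2.39, 1.80, 1.95 and 1.84, all with intervals above 0. Cers4 and Setd7, a ceramide synthase and a lysine methyltransferase, were at 2.03 and 1.74 in the Lef1 CD4 T cells but at -1.79 (-7.17 to 0.86) and -0.57 (-1.95 to 0.56) in the CD8 cells. Of the 27 Cers4 UMIs below the limit in the Cept1 library, 21 came from 1 cell.

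The lowest genes rested on few UMIs. The 12 lowest over all cells were Il1b, Ttc7b, Rrn3, Cdip1, Ube2e2, Siah3, Nsun4, Erbb4, Atxn3, Cwc25, Ube2a and Atg4a. Il1b, an inflammatory cytokine of myeloid cells, had 0 UMIs in Cept1 cells and 196 in control cells, at least 16.3-fold lower by a floor of 3 counts per library, but its UMIs sat in 4 control cells, 106 of them in 1, and the cells below the limit held 0 and 4. Ttc7b had 2 UMIs in Cept1 cells and 60 in control cells, a ratio of -2.91 (-5.98 to -0.99), and was seen in 2 and 38 cells. Cwc25, a splicing factor, and Ube2a, a ubiquitin-conjugating enzyme, both had 4 and 70 UMIs, with ratios of -2.13 (-4.04 to -0.71). They were at -2.68 below the limit.

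Naive genes differed in both directions. The naive and quiescence list had a median of 0.09, with 17 of 28 measured genes higher and 3 of them by at least 2-fold, and a median of -0.03 under TMM. Below the limit the median was 0.23, with 20 of 28 higher, 13 intervals above 0 and 4 below 0. Ccr7 was at -0.31 (-0.61 to -0.02), or -0.14 (-0.46 to 0.17) below the limit, Tcf7 at -0.08 and 0.01, and Il7r at -0.09 and 0.13. Klf2, which keeps T cells quiescent and circulating, was at 0.68 (0.44 to 0.90), and Arl4c, a small GTPase, at 1.13 (0.59 to 1.65). Dapl1, a transcript of naive T cells in mice, and Ramp3, a receptor activity-modifying protein, were at -0.92 (-1.51 to -0.38) and -1.08 (-1.77 to -0.45). In the list of CD4 lineage and T cell receptor genes 0 of 28 measured genes passed 2-fold in either direction, and the lowest was the receptor constant gene Trbc1 at -0.78 (-1.13 to -0.45).

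Effector and memory genes were higher in 17 of 18 measured cases, 6 of them by at least 2-fold, with a median of 0.76, but 11 of 14, 2 by at least 2-fold, and a median of 0.34 below the limit, where 6.86% and 5.53% of all genes were at least 2-fold higher. Vim and S100a6, genes of the cytoskeleton and of calcium binding that fibroblasts also express, were at 1.12 (0.85 to 1.40) and 1.18 (0.89 to 1.46) over all cells. Ccr2 and Anxa2 were at 2.20 and 2.14, from 3 and 4 and from 8 and 15 cells, and had 3 UMIs each in the Cept1 library below the limit. Cxcr4, the receptor for the chemokine CXCL12, was at 1.18 (0.66 to 1.68) and kept 1.39 (0.85 to 1.92) below the limit. The fibroblast list stood at a median of 1.41 over all cells and 0.48 below the limit (7 of 10 genes measured), and the macrophage list at 1.51 and 1.68 (3 of 10 measured below the limit). Apoe, a gene of macrophages and fibroblasts, had 29 UMIs in Cept1 cells and 39 in control cells below the limit. Their part in the ratios was not tested.

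Sterol and fatty acid synthesis genes had a median of -0.48, with 6 of 20 measured genes at least 2-fold lower and 1 higher, against 8.09% and 6.86% of all genes. Hmgcs1, Cyp51 and Idi1, enzymes of cholesterol synthesis, had 2, 3 and 3 UMIs in Cept1 cells and 30, 44 and 36 in control cells, and Acaca, of fatty acid synthesis, 3 and 42. The ratio was -1.87 (-4.21 to -0.23) for Cyp51 and -1.81 (-4.14 to -0.16) for Acaca, while the intervals of Hmgcs1 (-5.02 to 0.07) and Idi1 (-3.93 to 0.08) reached 0. Abca1, the cholesterol exporter, was at 1.89 (0.69 to 3.09) from 13 and 14 UMIs over all cells. Below the limit the median of the list was -0.63, with 6 of 16 measured genes at least 2-fold lower and 0 higher. There 9.56% and 5.53% of all genes were, and the highest ratio of the list was 0.79. The list made up a median of 0.0861% of a cell's UMIs in Cept1 cells and 0.0879% in control cells, and in Lef1 CD8 T cells the median ratio was 0.46 over 6 measured genes.

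Phospholipid synthesis genes, the pathway of Cept1, had a median of -0.28, with 4 of 22 measured genes past 2-fold in each direction, against 6.86% of all genes higher and 8.09% lower. Slc44a1, a choline transporter, was at 1.50 (0.52 to 2.46) from 17 and 24 UMIs, and Crls1, cardiolipin synthase, at -2.52 (-7.89 to 0.10) from 1 and 23 UMIs. Below the limit the median of the phospholipid list was -0.50, with 4 of 20 measured genes at least 2-fold higher and 5 lower. There 5.53% and 9.56% of all genes were. Interferon response genes had a median of 0.30, with 8 of 34 measured genes at least 2-fold higher and 1 lower, against 6.86% and 8.09% of all genes. Xaf1 was at 1.81 (0.66 to 2.94) from 14 and 16 UMIs in 9 and 14 cells. Gbp2, an interferon-induced GTPase, was at 1.63 (0.91 to 2.35), but 29 of its 31 UMIs in the Cept1 library came from 1 cell, and 24 of the 35 Ifit1 UMIs of the control library from another. Below the limit the interferon median was 0.36, with 6 of 31 measured genes at least 2-fold higher and 2 lower, against the same 5.53% and 9.56%. Oxidative phosphorylation genes had a median of 0.07 with 27 of 37 higher over all cells (-0.05 under TMM), but -0.24 with 27 of 37 lower below the limit. Haemoglobin genes, whose near-identical copies can share reads, reversed the other way, from lower over all cells to higher below the limit. Of 366 Hba-a1 UMIs in control cells, 1 cell held 308. Hba-a1 was at -2.27 over all cells and 0.56 below the limit.

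Within each library the Lef1 CD4 T cells were also compared with other T cells. Against the 9 and 5 CD4 T cells without Lef1, 51 genes were at least 2-fold higher and 35 at least 2-fold lower in both libraries, of 1193 measured in both; below the limit, with 9 and 4 such cells, the counts were 37 and 39 of 883. Within a library the share past 2-fold was 14.7% higher and 10.5% lower for Cept1 and 8.67% and 14.4% for control. In the cells below the limit S1pr1, the receptor that guides exit from tissue and lymph nodes, was higher by 5.13 (2.62 to 10.44) in the Cept1 library and 2.22 (0.36 to 5.27) in the control library. The cells without Lef1 held only 1 and 2 S1pr1 UMIs. Gramd3 was higher by 3.96 and 1.65, and Satb1 by 1.89 and 2.00. Rora, a factor of memory and innate-like lymphocytes, was lower, at -3.11 (-3.74 to -2.52) and -3.04 (-3.88 to -2.07). Id2, a factor of effector differentiation, was at -2.85 and -2.68, Ikzf2 at -2.44 and -4.32, and Ctla4 at -2.26 and -1.95, the last pair being genes of regulatory T cells. These groups were split on Lef1, a gene of the resting state, so differences in naive and effector genes are given as a description only.

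Against Lef1 CD8 T cells, 10 genes were at least 2-fold higher and 3 lower in both libraries, of 1366 measured, and 5 and 4 of 844 below the limit, where 7.92% of genes were higher and 2.01% lower within the Cept1 library and 3.76% and 1.5% within the control library. Below the limit Tmem64 was higher in the CD4 cells by 3.96 (1.42 to 9.29) in the Cept1 library and 2.65 (1.92 to 3.48) in the control library, Lrig1 by 4.19 (1.66 to 9.52) and 3.13 (2.12 to 4.36), and Adk, adenosine kinase, by 1.13 and 1.43. Cblb, a ubiquitin ligase that restrains T cell activation, was higher by 1.81 (1.37 to 2.27) and 0.89 (0.74 to 1.04). Epsti1 and Fgf13 were lower in the CD4 cells, at -1.69 and -2.07 and at -1.90 and -1.59. Against all other T cells, 17 genes were higher and 182 lower in both libraries, of 5089 measured below the limit, where 2.74% were higher and 13.7% lower within the Cept1 library and 0.987% and 8.29% within the control library. St8sia6, a sialyltransferase, was higher by 3.38 (2.82 to 3.96) and 2.10 (1.81 to 2.40). Ccl4, a chemokine of cytotoxic lymphocytes, had 1 UMI in the Lef1 CD4 T cells of either library and was at -5.04 (-10.35 to -2.55) and -5.98 (-11.29 to -3.49). Since the rule left out cells with Nkg7, a gene of cytotoxic cells, low Ccl4 follows the choice of cells and is no finding.

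Among themselves the cells below the limit varied most in Malat1, Ikzf2, Ctla4, Grap2, Lef1, Prkca, Dleu2, Bcl2, Actb and Inpp4b, by the ratio of variance to mean of counts thinned to 1500 UMIs, among 3005 genes whose median ratio was 0.94. Ikzf2 had ratios of 3.76 in Cept1 cells and 8.84 in control cells, with a UMI in 9.09% and 6.50% of thinned cells, and Ctla4 7.17 and 2.63, in 15.2% and 13.8%. Both genes were concentrated in a minority of cells in both libraries. Bcl2 had a ratio of 2.42 in each library, with a UMI in 22 of 33 and 32 of 123 thinned cells.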

How the data were processed

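Whole-aorta single-cell libraries, 1 per group, were compared in cells gated by marker counts. The authors deposited UMI counts by gene and barcode, without normalization; Cell Ranger 7.2.0 stands in the file headers, and Cell Ranger, Seurat and mm10 are listed in the submitters' processing notes. Annotation release, intron counting and strand use are not stated in the labels. UMIs were summed over the gated cells of a library and divided by their total. Ratios carry exact intervals of the UMI split, shares exact binomial intervals, and a count of 0 is read with a floor of 3 counts. Genes needed 50 UMIs over both libraries, list members 20. The intervals were checked only on simulated Poisson counts, the model they assume, so the check does not cover spread between cells. Doublets were scored with Scrublet (scanpy 1.11.5) at 1 threshold, 0.237, for both libraries, since the automatic threshold of the control library (0.702) marked 0 cells. TMM factors came from edgeR 4.0.16 and coordinates from GENCODE on GRCm38.

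Named genes were the rule and marker genes, Cept1, Gt(ROSA)26Sor, the 12 highest and 12 lowest ratios with an interval off 0, the 4 largest ratios of each list, the 10 leading genes in each direction against either other T cell class (and, added later, all other T cells), and the 10 most variable genes; ribosomal, mitochondrial, haemoglobin, receptor segment and unnamed genes, and those below 0.5 of the level in other cells, were left out of rankings. The same ranking was made below the 0.5% limit. Irf4, Gadd45b, Zfp36, Nfkbia, Dusp1, Dusp2, Nr4a1, Junb, Fosl2, Vim, S100a6, Idi1, Acaca and Apoe were chosen after their values were seen. The cells and gene lists were chosen with earlier results of these data known. Cells are not replicates, and no test between groups was made. Some genes covered by the naming rule are not reported here.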

Additional observations from a re-analysis of the deposited data

Results flagged for a closer look

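The activation and immediate early list was higher in the Lef1 CD4 T cells of the Cept1 library (median log2 ratio 0.72) and had the opposite sign in 3 other gated populations, which drew attention to it. Its median was -0.18 in endothelial cells, -0.26 in fibroblasts and -0.13 in macrophages. The difference between cell types was not tested, since each group has 1 library.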

How the results depend on the processing

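No paired analysis was possible because each group has 1 library and no result comes from a test. The share of Lef1 CD4 T cells was lower in the Cept1 library under every alternative run. The difference in percentage points (-1.23 as reported) was -1.87 under a stricter cell filter (1000 genes, 5% mitochondrial) and -0.378 after thinning to 1500 UMIs, and the fold difference (4.53 as reported) was 7.98 and 13.7 there, from 17 and 111 cells and from 3 and 32 cells. After thinning the share among CD4 T cells differed by -32.1 points (-15.3 as reported). Counts of genes past 2-fold (189 higher and 176 lower) followed the UMI minimum, with 519 and 612 at 20 UMIs and 72 and 54 at 100 UMIs. They were 19 and 22 after thinning, 275 lower under that filter, and 116 higher under the 0.5% limit, an alternative added after the data were seen. Against other T cells, thinning left 7 genes higher and 0 lower (Lef1-negative CD4), 0 and 1 (Lef1 CD8) and 4 and 48 (all others), since 176, 189 and 1778 genes were then measured; the 0.5% limit gave 5 higher against Lef1 CD8 cells and 182 lower against all others. The activation median stayed between 0.48 and 0.91, while the naive median changed sign, at -0.03 under TMM and -0.07 under the stricter filter. Of 141 genes followed, Col1a1 reversed under the 0.5% limit (-0.17), Fbln2 without Scrublet doublets (-1.63) and Cers4 under the stricter filter (-0.11); the causes were not tested. Hba-a1, Hba-a2, Hbb-bs and Hbb-bt reversed to 0.29, 1.24, 1.12 and 2.07 with Ccr7 required and to 0.56, 1.56, 1.17 and 2.23 under the limit, which left out the control cell with 308 of 366 Hba-a1 UMIs. A limit of fewer than 2 UMIs of other cells' markers left 0 and 1 cells and gave no value. The 39 Cept1 cells set the precision.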
